A study of Rattus norvegicus with 8 samples.

Results

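The plasmid pCMV6.ODAM was compared with pCMV6 in Control SF2 cells, a rat dental epithelial line from the cervical loop of the mandibular incisor, with the 4 Control libraries out of the 8 of the study. The 4 are pCMV6 labelled N, pCMV6.ODAM labelled N, pCMV6 labelled TGF and pCMV6.ODAM labelled TGF, with 1 library each. The other 4 libraries carry the same plasmid and N or TGF labels in AmeloD-overexpressing SF2 cells. The comparison was made within the N pair and within the TGF pair, and the plasmid effect is the mean of both pair differences. The labels do not spell out N or TGF, the species of the ODAM insert, or how and when cells received a plasmid. They do not say whether the libraries came from separate cultures, so the spread between these single libraries may be technical. The tests took their spread from the disagreement of the N and TGF pair differences within each genotype. A plasmid effect under 1 label alone would add to that spread.

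ODAM, the odontogenic ameloblast-associated protein, is a secreted protein of the family that also holds the enamel matrix proteins. It is made by maturation-stage ameloblasts, the cells that finish enamel, and by the junctional epithelium that seals the gum to the tooth, where it lies in a specialised basal lamina with amelotin and laminin. Inside epithelial cells it has been linked to RhoA signalling, which sets the state of the actin cytoskeleton. pCMV6 is a mammalian expression vector, and the pCMV6 libraries are its control. The question the design poses is which other genes differ when Control cells carry ODAM.

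The CPM value of 1 read puts the Control library totals at 14766931 to 17775226 reads. These totals were recovered, not read from the labels, and which reads they count is not known. Of them, 15.6% to 17.5% fell on the genes of the table, and 12738 to 13152 genes had a read. Values are CPM, read counts scaled to each library's total. The share on the table was highest in the pCMV6.ODAM TGF library, and with it the median of all tested genes was 0.15 higher on the log2 scale in the TGF pair, against -0.06 in the N pair; after TMM scaling (a rescaling of the libraries on the tested genes) both medians were 0.00 to 2 decimals. The 6 dental epithelial markers found in the table summed to 502 to 644 CPM and none was at 0. Fibroblast markers summed to at most 0.203 CPM, with Col1a2, Dcn and Lum at 0 reads in each Control library, odontoblast markers to at most 0.260 CPM, with Dspp and Dmp1 at 0, and leukocyte and endothelial markers to at most 0.0677 CPM, with Ptprc, Tyrobp and Kdr at 0. The longer lists described below held more. Mesenchymal and fibroblast genes summed to 270 to 367 CPM, with S100a4 at a mean of 163 and Fn1 at 45.8. The odontoblast list summed to 1.06 to 1.63 CPM, the leukocyte list to 0.876 to 1.63 and the endothelial list to 1.24 to 2.01. For the dental epithelial markers, pCMV6 N held the highest sum and pCMV6 TGF the lowest, on either side of both ODAM libraries.

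Odam reads lay mostly in the ODAM libraries. Control cells were taken for this comparison because most Odam reads of the plasmid were seen there, so the Odam values are given as a description with no test. Odam (ENSRNOG00000023372, mRatBN7.2 chr14:20193302-20202517, minus strand) had 1 read in the pCMV6 N library (0.0626 CPM) and 10 in pCMV6.ODAM N (0.677 CPM). It had 0 reads in pCMV6 TGF, where 3 reads would be 0.169 CPM, and 17 in pCMV6.ODAM TGF (1.10 CPM). Both ODAM libraries lay above both pCMV6 libraries. Over both pairs, 27 reads stood against 1, a ratio per library read of 30.2. In the N pair the ratio was 10.8, and in the TGF pair the pCMV6 side had 0 reads. These ratios compare reads of these libraries, not conditions. They carry no interval or test because the genotype was chosen on these reads.

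Even with the plasmid, Odam was near the lower limit of what the libraries measured. It reached 1 CPM in 1 of the 4 Control libraries, and the test across genes asked for 1 CPM in no fewer than 2, so Odam did not enter it. Among the 1713 genes with 20 to 40 reads over the 4 Control libraries, a median of 48% of reads lay in the ODAM libraries, where depth alone gives 47.2%. Odam, at 96.4%, ranked 2, behind Styxl1 at 100%. The rank describes the reads on which the genotype was chosen and is no test. The library kit reads the 3' ends of transcripts, so a construct without the native 3' end of the gene may go uncounted, and the Odam CPM is no measure of how much ODAM the cells made. The AmeloD libraries with the ODAM plasmid had 1 and 3 Odam reads and those with pCMV6 had 0.

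**Figure D1:**
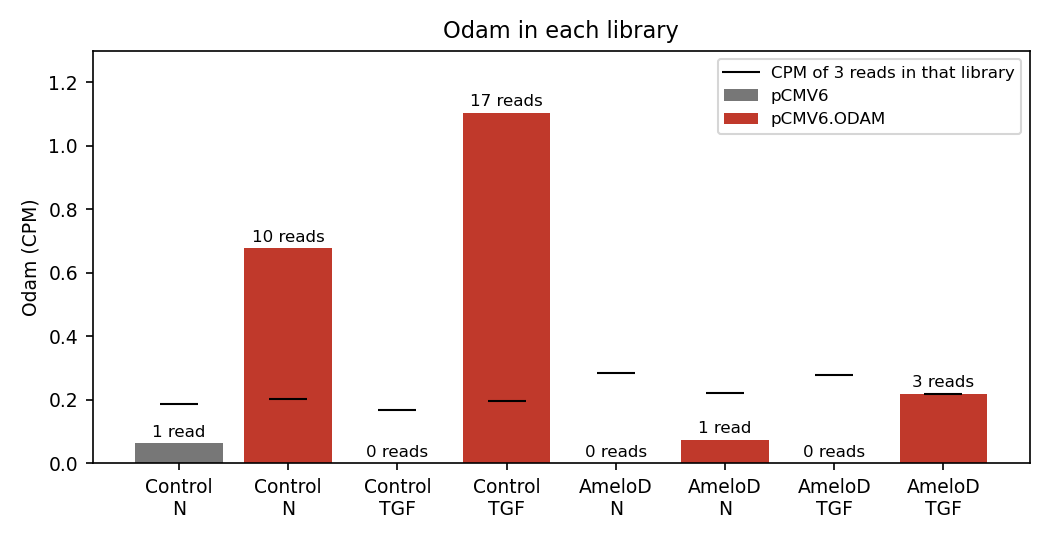
Odam in CPM (vertical axis) in each of the 8 libraries (horizontal axis), pCMV6 in grey and pCMV6.ODAM in red, with read numbers above the bars and short lines at the CPM of 3 reads. The 2 Control libraries with the ODAM plasmid, at 10 and 17 reads, are the only ones above their line.

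No gene of the Control cells passed the test across genes for the plasmid effect. limma (a linear model fitted to all genes on log2(CPM + 1), p-values adjusted by Benjamini-Hochberg) called 0 of 6878 genes at an adjusted p of 0.05, or 0%. Its smallest adjusted p was 0.999. The test looks for an effect shared by the N and TGF pairs, and a difference in 1 pair alone counts as spread. Without adjustment 224 genes (3.26%) were below 0.05, 148 higher with ODAM (2.15%) and 76 lower (1.1%); after TMM scaling this was 295 genes, 148 higher and 147 lower. On whole reads recovered from the CPM, edgeR called 0 genes (313 below 0.05 unadjusted, smallest adjusted p 0.393) and DESeq2 called 0 (50 below 0.05 unadjusted). With the 4 Control libraries alone, a fit with 1 residual degree of freedom, limma called 3 genes (Cxcl6 and Cxcl3 lower, Spink5 higher) and edgeR 6, and limma also called 3 when any AmeloD library was left out. Both ODAM libraries lay above both pCMV6 libraries in 1304 genes (19%) and below both in 734 (10.7%), and after TMM scaling in 1056 (15.4%) and 1027 (14.9%).

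The fitted effects ran from -1.52 to 1.04 on the log2(CPM + 1) scale, with a median of 0.04. The 95% interval lay within 1 log2 unit of no difference in 6408 genes (93.2%), so for these a change of more than 2-fold on that scale lies outside the interval. For the 217 genes at 100 CPM or more, the median half-width of the interval was 0.29 log2; for the 4323 genes under 5 CPM it was 0.56. An interval within 1.5-fold either way held for 1924 genes. The scale understates changes of low genes.

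The pairs did not share a pattern of differences across genes. Of the 6878 genes, 3177 (46.2%) differed in the same direction in the N pair and the TGF pair, 1957 higher in both and 1220 lower in both. Pearson's r between the pair differences was -0.00 (Spearman's rho -0.01). After each pair was centred on its own median, 3400 genes (49.4%) had the same direction. Pearson's r was also near 0 (-0.00) among the 2670 genes that reached 5 CPM in 2 or more Control libraries. These figures are across genes, which are not independent replicates, and the pairs share no library. Differences beyond 1 log2 unit numbered 14 higher and 27 lower genes in the N pair and 45 higher and 19 lower in the TGF pair, and 0 genes were beyond 1 in both.

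**Figure D2:**
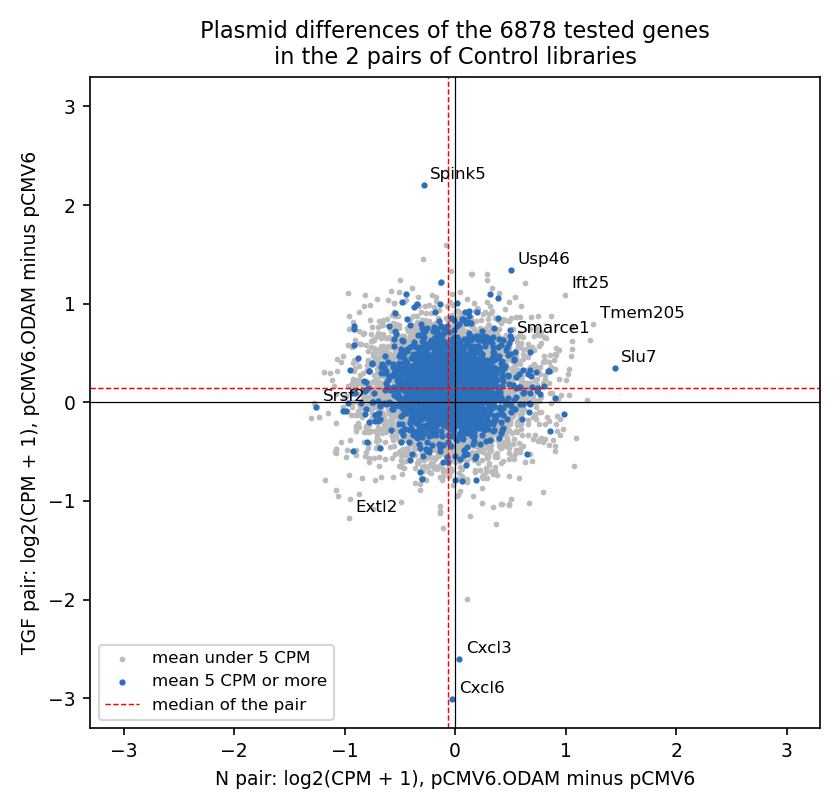
Plasmid difference of each of the 6878 tested genes in log2(CPM + 1) in the N pair (horizontal axis) and in the TGF pair (vertical axis); blue points have a mean of 5 CPM or more, grey points less, and dashed lines mark the pair medians of -0.06 and 0.15. The cloud is round, and Cxcl6, Cxcl3 and Spink5 lie farthest from the cloud, along the axis of the TGF pair.

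The 6 genes whose mean effect went beyond 1 log2 unit were Ift25 and Tmem205 on the higher side and Cxcl6, Cxcl3, Extl2 and LOC120100344 on the lower side. Of these only Cxcl6 met the naming rule used below; the others are named for their size. Ift25, a subunit of the intraflagellar transport machinery that builds cilia, was at 0.688 CPM in pCMV6 N, 2.37 in pCMV6.ODAM N, 0.506 in pCMV6 TGF and 2.21 in pCMV6.ODAM TGF, from 9 to 35 reads a library (effect 1.04 ± 0.27, SE). Tmem205, a membrane protein, was at 1.13, 4.06, 2.42 and 4.94 CPM in the same order (1.02 ± 0.26). In both genes, picked for the size of their effect, both ODAM libraries lay above both pCMV6 libraries, as in 19% of all tested genes. Tmem205 had the smallest unadjusted limma p of all tested genes, 0.0010, and did not pass the adjusted test. Extl2, a glycosyltransferase of the exostosin family, was at 2.25, 0.677, 3.32 and 0.910 CPM (-1.07 ± 0.28). LOC120100344 was at 1.94, 0.406, 1.18 and 0.130 CPM, the last of these from 2 reads.

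The genes described next had a mean of at least 5 CPM, the same direction in both pairs and the smallest unadjusted p, 12 in each direction. None passed the test, with adjusted p-values of 0.999 (limma), and their shared direction is part of the choice. Smarce1, a subunit of the SWI/SNF chromatin remodelling complex, was at 47.1 CPM in pCMV6 N and 67.1 in pCMV6.ODAM N, and at 53.6 in pCMV6 TGF and 83.9 in pCMV6.ODAM TGF. Its difference was of like size in both pairs, with a mean of 0.57 ± 0.15 (SE), and its effect in AmeloD cells was -0.18. Usp46, a deubiquitinating enzyme, was at 6.38 and 9.48 CPM in the N pair and 3.71 and 10.9 in the TGF pair (0.92 ± 0.28). Slu7, a splicing factor, was at 4.44 and 13.8 CPM in the N pair and 2.7 and 3.7 in the TGF pair (0.90 ± 0.27). Its plasmid groups overlapped, and most of its difference came from the N pair.

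Of the others on the higher side, Cnfn, the cornified envelope protein cornifelin, was at 59.6 and 63.5 CPM in the N pair and 58.1 and 110.6 in the TGF pair (0.50 ± 0.17), a difference held mostly by the pCMV6.ODAM TGF library. Hopx, an atypical homeodomain protein that binds no DNA, was at 13.8 and 20.5 CPM in the N pair and 11.9 and 17.4 in the TGF pair (0.52 ± 0.19). Ilk, the integrin-linked kinase of focal adhesions, was at 22.0 and 31.6 CPM in the N pair and 22.6 and 36.6 in the TGF pair (0.59 ± 0.22). Ilk was nearly alike in both pCMV6 libraries, and its effect in AmeloD cells was 0.65. Serpinb1a, an inhibitor of neutrophil proteases, was at 58.2 and 71.6 CPM in the N pair and 55.9 and 88.6 in the TGF pair (0.48 ± 0.16). The row named Mir205, a 108-base miRNA hairpin, was at 15.3 and 21.1 CPM in the N pair and 18.8 and 29.7 in the TGF pair (0.53 ± 0.20); it counts reads over the hairpin's locus and not mature miR-205.

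Dhx30, an RNA helicase of mitochondrial ribosome assembly, was at 9.08 and 11.5 CPM in the N pair and 5.4 and 12.7 in the TGF pair (0.70 ± 0.24). Fip1l1, of the machinery that cleaves and polyadenylates mRNA, was at 4.32 and 5.96 CPM in the N pair and 3.32 and 7.99 in the TGF pair (0.72 ± 0.25), with an effect of -0.74 in AmeloD cells. Morf4l2, a chromatin protein of histone acetyltransferase complexes, was at 9.26 and 17.5 CPM in the N pair and 10.2 and 13.0 in the TGF pair (0.58 ± 0.21). Dmxl1, which takes part in assembly of the vacuolar proton pump, completes the set at 9.26 and 12.5 CPM in the N pair and 8.33 and 15.9 in the TGF pair (0.62 ± 0.22). With the exception of Slu7, both ODAM libraries lay above both pCMV6 libraries in these 12 genes, as in 19% of all tested genes.

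On the lower side, Birc5, survivin, a protein of the mitotic chromosomal passenger complex, was at 13.8 CPM in pCMV6 N and 6.77 in pCMV6.ODAM N, and at 8.72 in pCMV6 TGF and 5.91 in pCMV6.ODAM TGF (-0.71 ± 0.25). Hbegf, a ligand of the EGF receptor, was at 27.9 and 17.0 CPM in the N pair and 34.6 and 24.9 in the TGF pair (-0.57 ± 0.21). Odc1, which makes polyamines, was at 9.83 and 7.18 CPM in the N pair and 13.4 and 8.58 in the TGF pair (-0.50 ± 0.22). In these 3 genes both ODAM libraries lay below both pCMV6 libraries, while the AmeloD pairs (N, then TGF) had differences of 0.72 and -0.34 for Birc5, -0.08 and 0.82 for Hbegf, and 0.09 and 0.19 for Odc1. Plk2, a polo-like kinase and p53 target, was at 87.6 and 63.8 CPM in the N pair and 79.1 and 65.4 in the TGF pair (-0.36 ± 0.15). Med27, a subunit of the Mediator complex, was at 19.0 and 10.5 CPM in the N pair and 22.5 and 16.8 in the TGF pair (-0.60 ± 0.22), and its effect in AmeloD cells was -1.01.

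For 4 genes on the lower side nearly all of the difference lay in the N pair. Gnl3, the nucleolar protein nucleostemin, was at 45.9 and 22.6 CPM in the N pair and 19.4 and 18.3 in the TGF pair (-0.54 ± 0.21). Srsf2, an SR splicing factor, was at 16.0 and 6.09 CPM in the N pair and 7.09 and 6.82 in the TGF pair (-0.65 ± 0.28). Rnps1, an exon junction protein, was at 69.9 and 42.3 CPM in the N pair and 39.9 and 36.8 in the TGF pair (-0.41 ± 0.18). In these 3 genes the pCMV6 N library stood above the other 3 Control libraries. Sys1, a Golgi trafficking protein, was at 8.82 and 3.86 CPM in the N pair and 7.93 and 7.41 in the TGF pair (-0.55 ± 0.24), with pCMV6.ODAM N below the rest. Fam76b was at 12.5 and 8.6 CPM in the N pair and 16.0 and 11.9 in the TGF pair (-0.44 ± 0.20). The plasmid groups of the 12 lower genes overlapped in Gnl3, Rnps1 and Ppbp. In the other 9 both ODAM libraries lay below both pCMV6 libraries, as in 10.7% of all tested genes (14.9% after TMM scaling). These 9 include Cxcl6, whose N pair difference of -0.02 lay above that pair's median of -0.06 over all tested genes.

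**Figure D3:**
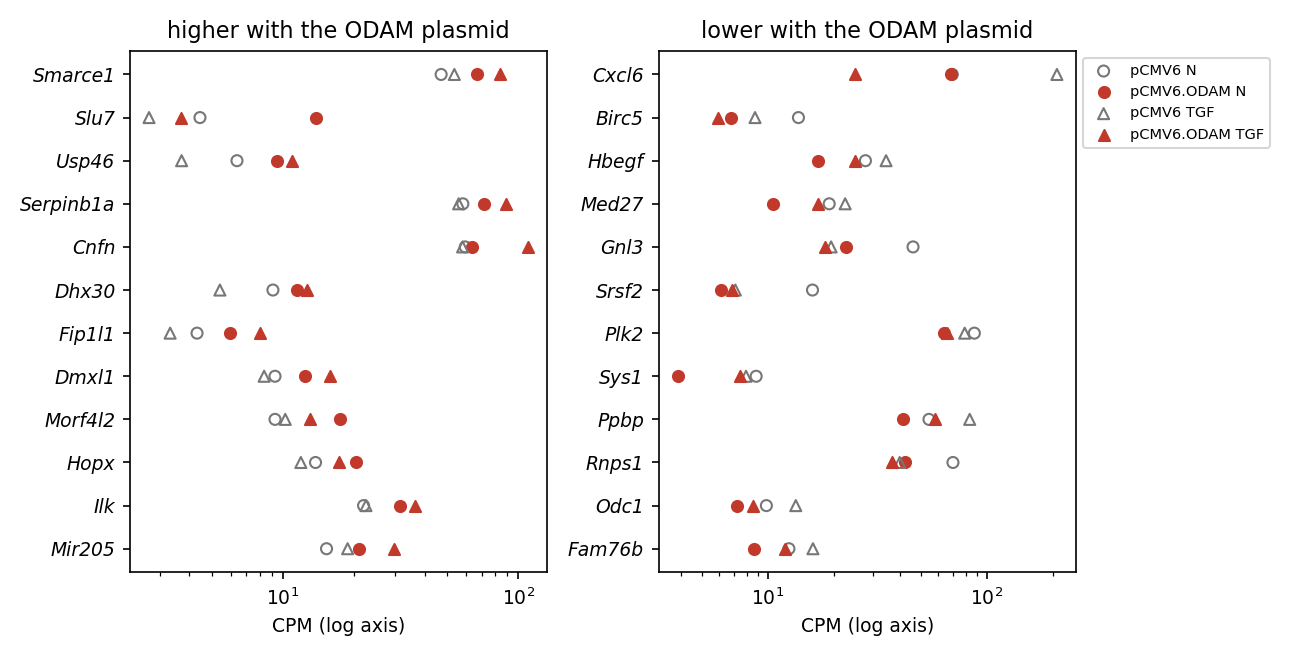
CPM on a log axis of the 12 genes named on each side in the 4 Control libraries: circles are N, triangles TGF, open grey symbols pCMV6 and filled red symbols pCMV6.ODAM. Smarce1, Ilk and Hopx show a gap between open and filled symbols, while Gnl3, Srsf2 and Rnps1 have 1 open circle apart from the other 3 symbols.

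Among the tested genes, the 2 largest differences in either Control pair were those of 2 chemokines in the TGF pair. Cxcl6, a chemokine that draws neutrophils, was at 69.4 CPM in pCMV6 N and 68.3 in pCMV6.ODAM N, and at 208.7 in pCMV6 TGF and 25.0 in pCMV6.ODAM TGF. The ratio of ODAM to pCMV6 per library read was 0.120 (95% interval 0.108 to 0.133, counting error only) in the TGF pair and 0.983 in the N pair, so the mean effect of -1.52 ± 0.47 came from the TGF pair alone. Cxcl3, a close relative, was at 3.0 and 3.12 CPM in the N pair and 13.0 and 1.3 in the TGF pair (-1.28 ± 0.50), with a TGF pair ratio of 0.10 (0.0600 to 0.158). Both had their highest Control value in pCMV6 TGF and their lowest in pCMV6.ODAM TGF. In AmeloD cells the TGF pair went the other way: Cxcl6 was at 90.7 CPM with pCMV6 and 193.8 with pCMV6.ODAM, and Cxcl3 at 4.71 and 11.9. In the AmeloD N pair Cxcl6 was at 83.5 and 34.7 CPM and Cxcl3 at 3.31 and 0.667.

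Cxcl1, Ccl20 and Nfkbia were picked after their values were seen. Cxcl1, a further neutrophil chemokine, was at 2.5 and 2.78 CPM in the N pair and 5.57 and 0.650 in the TGF pair (-0.94 ± 0.46). Ccl20, which draws CCR6-bearing leukocytes, was at 3.44 and 3.12 CPM in the N pair and 2.98 and 0.650 in the TGF pair (-0.69 ± 0.32). Nfkbia, the NF-kB inhibitor that NF-kB itself induces, was at 11.1 and 12.8 CPM in the N pair and 15.3 and 8.45 in the TGF pair (-0.30 ± 0.25). Ppbp, a platelet-type chemokine that met the naming rule, was at 54.3 and 41.2 CPM in the N pair and 83.4 and 57.7 in the TGF pair (-0.46 ± 0.20). In these 4 genes Control pCMV6.ODAM TGF was below pCMV6 TGF, while in the Control N pair Cxcl1 and Nfkbia were higher and Ccl20 and Ppbp lower with ODAM. The AmeloD TGF pair went the other way in all 4. Its log2 differences were 1.22 for Cxcl1, 0.38 for Ccl20, 0.62 for Nfkbia and 0.57 for Ppbp. In the AmeloD N pair all 4 were lower with ODAM, from -1.32 for Cxcl1 to -0.47 for Ppbp. Cxcl1, Cxcl3, Ppbp and Cxcl6 are neighbours on chromosome 14, between 17193365 and 17313093 in mRatBN7.2. How the counting treated reads shared by related chemokine genes is not stated in the labels.

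The promoters of Cxcl6 and Cxcl1 are printed because both genes, like Cxcl3 between them, had their highest Control value in pCMV6 TGF and their lowest in pCMV6.ODAM TGF. They come from RefSeq (GRCr8, minus strand, 250 bases before to 50 after the start), at chr14:17596368-17596667 and chr14:17479272-17479571. Capitals mark the stretch covered by matches to the NF-kB consensus, a motif of 10 letters searched on both strands; each promoter has 2 overlapping matches.
Cxcl6: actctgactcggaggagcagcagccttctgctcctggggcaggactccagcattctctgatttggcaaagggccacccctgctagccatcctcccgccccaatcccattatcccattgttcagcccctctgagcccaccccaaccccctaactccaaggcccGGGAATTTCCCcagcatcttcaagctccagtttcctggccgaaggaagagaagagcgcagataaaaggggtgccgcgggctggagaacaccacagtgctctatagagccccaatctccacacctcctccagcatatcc
Cxcl1: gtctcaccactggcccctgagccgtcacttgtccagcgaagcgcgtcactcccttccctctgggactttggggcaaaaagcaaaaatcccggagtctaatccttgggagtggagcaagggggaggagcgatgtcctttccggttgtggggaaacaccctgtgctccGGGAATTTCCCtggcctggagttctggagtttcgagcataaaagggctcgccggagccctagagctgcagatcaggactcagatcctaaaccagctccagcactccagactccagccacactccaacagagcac
The promoters of Ccl20 and Nfkbia each held 1 match and that of Ppbp held 0 matches. No promoter was found for Cxcl3 under that symbol. The motif was present in 1400 of 33469 rat promoters of this length (4.18%). These genes were picked for their values, no enrichment was tested, and a match describes the letters, not a bound site.

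In the other direction, Spink5, which encodes the inhibitor LEKTI of kallikrein proteases in cornifying epithelia, was at 52.2 and 42.7 CPM in the N pair and 33.0 and 155.2 in the TGF pair. The TGF pair ratio was 4.71 (4.30 to 5.16) and that of the N pair 0.819 (mean effect 0.96 ± 0.36). In AmeloD cells the larger difference was in the N pair, with Spink5 at 112.6 and 217.5 CPM in the N pair and 78.6 and 67.3 in the TGF pair. Srp19, of the signal recognition particle, was at 7.95 and 7.18 CPM in the N pair and 9.11 and 22.5 in the TGF pair (0.54 ± 0.27). Ubqln1, a ubiquitin-binding shuttle protein, was at 25.0 and 25.3 CPM in the N pair and 22.6 and 46.6 in the TGF pair (0.51 ± 0.21). In each of these 3 genes a single Control library, pCMV6.ODAM TGF, was above the other 3. The AmeloD pair differences (N, then TGF) were 0.36 and -0.14 for Srp19 and 0.46 and 0.82 for Ubqln1.

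**Figure D4:**
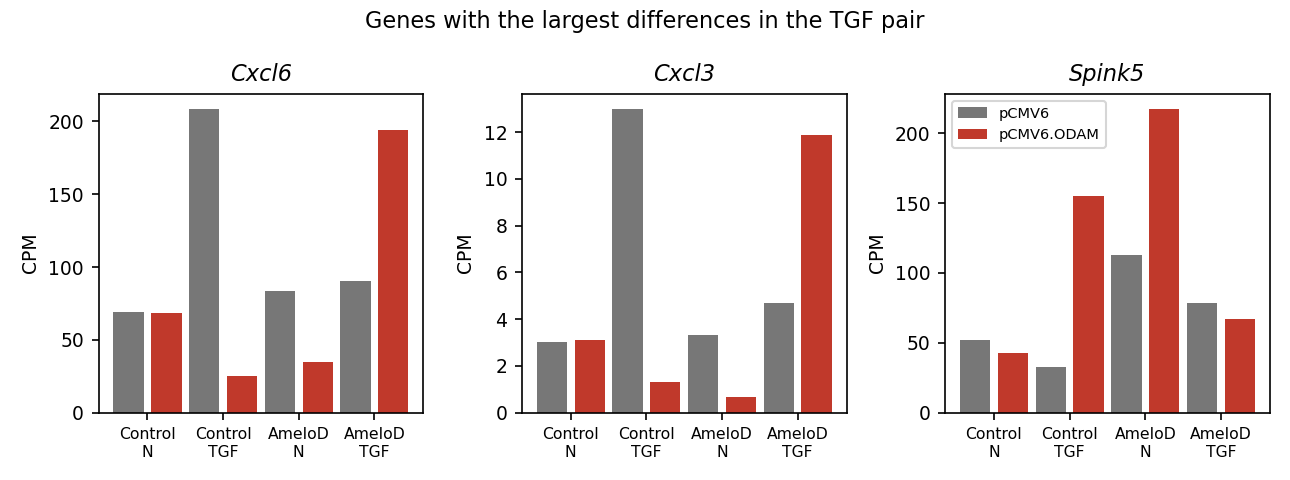
CPM (vertical axes, each from 0) of Cxcl6, Cxcl3 and Spink5 in the 4 pairs of libraries, pCMV6 in grey and pCMV6.ODAM in red, 1 library a bar. Cxcl6 and Cxcl3 are high in the Control pCMV6 TGF and the AmeloD pCMV6.ODAM TGF library, and Spink5 in Control pCMV6.ODAM TGF and AmeloD pCMV6.ODAM N.

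The spread of differences over all tested genes was alike in both pairs (SD 0.33 log2 in each), and the genes with the largest differences in the N pair were others. Besides Slu7 and Srsf2, Stmn1, the microtubule-destabilising protein stathmin, was at 4.88 CPM in pCMV6 N and 10.02 in pCMV6.ODAM N, and at 5.51 and 5.72 in the TGF pair (0.48 ± 0.28). Hspa9, the mitochondrial chaperone mortalin, was at 4.26 and 8.53 CPM in the N pair and 7.48 and 5.91 in the TGF pair (0.28 ± 0.27). Dusp6, a phosphatase that ERK signalling induces and that turns ERK off, was at 11.8 and 5.55 CPM in the N pair and 11.9 and 11.8 in the TGF pair (-0.49 ± 0.24). Pfn2, a profilin that binds actin monomers, was at 6.51 and 2.98 CPM in the N pair and 4.44 and 8.32 in the TGF pair (-0.07 ± 0.31). In each of these 4 genes the TGF pair was near 0 or went the other way.

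Gene lists were next described by count and median, beside a median of 0.04 over all tested genes (-0.06 in the N pair and 0.15 in the TGF pair). The 26 lists held 673 symbols, of which 659 matched a row and 362 could be tested in Control; limma called 0 of them, against 0% of all tested genes. ODAM belongs with the enamel and ameloblast genes. Of that list of 28, 6 were tested and 11 had 0 reads in all 4 Control libraries, among them the enamel matrix genes Amelx, Ambn and Enam, the basal lamina partner Amtn, and the enamel proteases Mmp20 and Klk4. The tested ones were Tuft1, Fam83h, Fam20c, Ltbp3, Itgb6 and Sp6, with effects from -0.16 to 0.27 and a median of 0.12. Fam20c, the kinase that phosphorylates secreted matrix proteins of this family, was at 2.5 and 3.52 CPM in the N pair and 3.09 and 3.57 in the TGF pair (0.26 ± 0.25). Sp6, a transcription factor of ameloblasts also called epiprofin, was at 1.31 and 1.22 CPM in the N pair and 0.563 and 1.36 in the TGF pair (0.27 ± 0.28).

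Lists of processes that ODAM has been linked to are set beside the median effect of 0.04 over all tested genes. Of 35 tested genes of the RhoA pathway and the actomyosin cytoskeleton, 19 were above 0 and 16 below, the median effect was 0.03, and 34 had a 95% interval within 1 log2 unit. Actb, cytoplasmic actin, was at 354 and 273 CPM in the N pair and 344 and 349 in the TGF pair (-0.17 ± 0.14). Myl6, the non-muscle myosin light chain, was at 419 and 422 CPM in the N pair and 500 and 566 in the TGF pair (0.10 ± 0.13). Of 19 basal lamina, integrin and hemidesmosome genes, 6 were above 0 and 13 below, with a median of -0.05, and all 19 had their interval within 1 log2 unit. Lamb3, a chain of the laminin that anchors epithelium, was at 32.4 and 24.1 CPM in the N pair and 51.4 and 44.5 in the TGF pair (-0.31 ± 0.17). Itgb1, the beta-1 integrin, was at 145 and 149 CPM in the N pair and 171 and 180 in the TGF pair (0.06 ± 0.14).

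Among the lists of epithelial state, the cornified envelope genes had the highest median of those with more than 1 tested gene. Of 16 tested, 13 were above 0, with medians of 0.19 for the mean effect, -0.06 in the N pair and 0.43 in the TGF pair. Both ODAM libraries were above both pCMV6 libraries in 3 of the 16 and below both in 1 (all genes: 19% and 10.7%). Effects in the list ran from -0.29 to 0.50, with 3 genes below 0. Krtdap, a keratinocyte differentiation protein picked after its values were seen, was at 17.8 and 21.2 CPM in the N pair and 9.73 and 15.7 in the TGF pair (0.44 ± 0.17). The row named Krt16 looks like a merged keratin gene model on chromosome 10, which was not tested. Its 405 and 356 CPM in the N pair and 274 and 343 in the TGF pair may hold reads of several keratins. The 26 epithelial junction and keratin genes had a median of 0.09 and the 14 genes of dental epithelial identity one of 0.01. Krt5, the basal keratin, was at 247 and 213 CPM in the N pair and 177 and 189 in the TGF pair (-0.06 ± 0.14). Krt17 was at 382 and 300 CPM in the N pair and 308 and 333 in the TGF pair (-0.12 ± 0.14).

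The NF-kB and cytokine list had the lowest median, -0.20 over 12 tested genes, with 9 below 0; its median was -0.02 in the N pair, where all genes had -0.06, and -0.18 in the TGF pair, where all genes had 0.15. The chemokines Cxcl3 and Ccl20, given above, were its 2 genes with an unadjusted limma p below 0.05, both lower. Over all tested genes 1.1% were lower at this level. List members were chosen with earlier results of these data known, and enrichment was not tested. The difference of both chemokines lay in the TGF pair, with 0.04 for Cxcl3 and -0.11 for Ccl20 in the N pair. Ptgs2, the inducible cyclooxygenase, was at 14.8 and 13.5 CPM in the N pair and 23.2 and 22.1 in the TGF pair (-0.09 ± 0.21). Il24, a cytokine, was at 14.3 and 12.9 CPM in the N pair and 15.0 and 10.98 in the TGF pair (-0.28 ± 0.21). The 8 tested interferon response and nucleic acid sensing genes had a median of 0.17, at 0.15 and 0.19 in the N and TGF pairs, with 5 above 0 and 3 below. B2m, the light chain of MHC class I, was at 11.95 and 11.3 CPM in the N pair and 10.2 and 17.5 in the TGF pair (0.33 ± 0.23). Ifi27, an interferon-induced gene, was at 12.4 and 15.9 CPM in the N pair and 14.5 and 19.7 in the TGF pair (0.38 ± 0.19). Usp18, an interferon-induced protease that removes ISG15, had the lowest effect of the list, at 2.38 and 1.08 CPM in the N pair and 1.46 and 1.04 in the TGF pair (-0.48 ± 0.26).

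Of 24 mitosis genes, 18 were below 0, with a median of -0.10. The median was -0.29 in the N pair and 0.03 in the TGF pair. Hmgb2, a chromatin protein of dividing cells, was at 78.5 and 97.0 CPM in the N pair and 92.2 and 79.2 in the TGF pair (0.04 ± 0.17). Aurka, a mitotic kinase picked for its unadjusted p, was at 6.26 and 2.03 CPM in the N pair and 5.01 and 4.81 in the TGF pair (-0.65 ± 0.30). Cdca8, a partner of Birc5 in the passenger complex, was at 40.6 and 38.3 CPM in the N pair and 25.1 and 26.0 in the TGF pair (-0.02 ± 0.18). Of 28 DNA replication genes, 18 were also below 0, with a median effect of -0.07. Their pair medians differed from those of the mitosis genes, at 0.10 in the N pair and -0.11 in the TGF pair. Hells, a chromatin remodeller of dividing cells, was at 65.9 and 73.0 CPM in the N pair and 60.5 and 61.9 in the TGF pair (0.09 ± 0.17). Rfc1, the large subunit of the clamp loader, was at 8.39 and 8.87 CPM in the N pair and 8.33 and 7.8 in the TGF pair (-0.01 ± 0.22).

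Signalling lists are set beside medians over all tested genes of 0.04 for the effect, -0.06 in the N pair and 0.15 in the TGF pair. In the N and TGF pairs, the TGF-beta list had medians of -0.11 and 0.005 and the immediate early list -0.20 and 0.03. The BMP list had -0.19 and 0.18, the Hedgehog list -0.19 and 0.17, and the Wnt and Notch list -0.13 and 0.10. The median effect was -0.01 over 13 TGF-beta induced genes, -0.03 over 6 BMP targets, 0.03 over 5 Hedgehog genes, 0.07 over 15 Wnt and Notch genes and -0.06 over 16 immediate early genes. Among the 2 highest members of each list, Fst, the activin inhibitor follistatin, was at 77.3 and 58.6 CPM in the N pair and 109 and 112 in the TGF pair (-0.18 ± 0.16). Inhba, the activin A subunit, was at 35.3 and 28.3 CPM in the N pair and 45.3 and 38.2 in the TGF pair (-0.27 ± 0.21). The BMP genes Bmpr2 and Id3 had effects of -0.06 ± 0.24 and 0.01 ± 0.25, and Ccnd1 and Gsk3b of the Hedgehog list 0.19 ± 0.20 and 0.03 ± 0.25. Hes1, a Notch target, was at 15.0 and 18.2 CPM in the N pair and 17.6 and 22.5 in the TGF pair (0.30 ± 0.19), with both ODAM libraries above both pCMV6 libraries, and Cd44 had -0.14 ± 0.22. The immediate early gene Ier3 had -0.10 ± 0.17. The next 4 genes were picked for their unadjusted p. Tgif1, a repressor of TGF-beta signalling, was at 2.32 and 3.86 CPM in the N pair and 4.73 and 6.95 in the TGF pair (0.51 ± 0.24), and its effect in AmeloD cells was 0.53. Jund, an AP-1 subunit, was at 23.8 and 30.8 CPM in the N pair and 26.0 and 35.4 in the TGF pair (0.39 ± 0.17). Tcf7l2, the transcription factor at the end of the Wnt pathway, was at 0.751 and 2.10 CPM in the N pair and 1.01 and 1.69 in the TGF pair (0.62 ± 0.26), and Lrp6, a co-receptor for Wnt ligands, at 1.0 and 0.135 and at 1.13 and 0.455 CPM (-0.68 ± 0.26). In these 4 genes the unadjusted limma p was between 0.018 and 0.0497, and none passed the adjusted test.

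The lists of secretory, stress and metabolic genes held no called gene either. The median effect was 0.04 over 26 endoplasmic reticulum stress and chaperone genes, 0.09 over 17 cytosolic heat shock genes, 0.09 over 21 metallothionein and oxidative stress genes and -0.07 over 16 p53 targets. Hspa5, the main chaperone of the endoplasmic reticulum, was at 58.7 and 56.2 CPM in the N pair and 56.9 and 64.1 in the TGF pair (0.05 ± 0.22), and Canx, the lectin chaperone calnexin, had an effect of 0.15 ± 0.20. Of the heat shock genes, Hspe1 was at 383 and 381 CPM in the N pair and 379 and 343 in the TGF pair (-0.08 ± 0.13) and Hsp90ab1 had 0.09 ± 0.15. Gpx1, a glutathione peroxidase, was at 84.6 and 97.7 CPM in the N pair and 81.3 and 101.0 in the TGF pair (0.26 ± 0.15), and the redox protein Txn1 had 0.11 ± 0.14. The p53 target Ccng1 was at 41.7 and 35.8 CPM in the N pair and 32.5 and 25.6 in the TGF pair (-0.27 ± 0.17). Dnajb9 and Cryab were picked for their unadjusted p. Dnajb9, a co-chaperone of Hspa5, was at 2.25 and 1.02 CPM in the N pair and 1.80 and 0.910 in the TGF pair (-0.62 ± 0.26). Cryab, a small heat shock protein, was at 64.6 and 71.4 CPM in the N pair and 57.8 and 90.3 in the TGF pair (0.39 ± 0.16). The medians over the other lists of this kind were 0.09 for 19 hypoxia and glycolysis genes and 0.05 for 13 cholesterol synthesis genes. Ldha and Eno1 of glycolysis had effects of -0.07 ± 0.15 and -0.09 ± 0.16, and Fdps and Cyp51 of cholesterol synthesis 0.09 ± 0.24 and 0.02 ± 0.22. The 7 matrix metalloproteinase and inhibitor genes had a median of 0.03, with Bsg at -0.07 ± 0.16 and Serpine2 at 0.05 ± 0.20. The 9 tested mesenchymal genes had a median of 0.08, with S100a4 at 0.13 ± 0.14 and Fn1 at 0.03 ± 0.18. The single tested genes of the odontoblast, leukocyte and endothelial lists, Spp1, Cd68 and Egfl7, had 0.21 ± 0.27, 0.08 ± 0.26 and 0.37 ± 0.27.

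**Figure D5:**
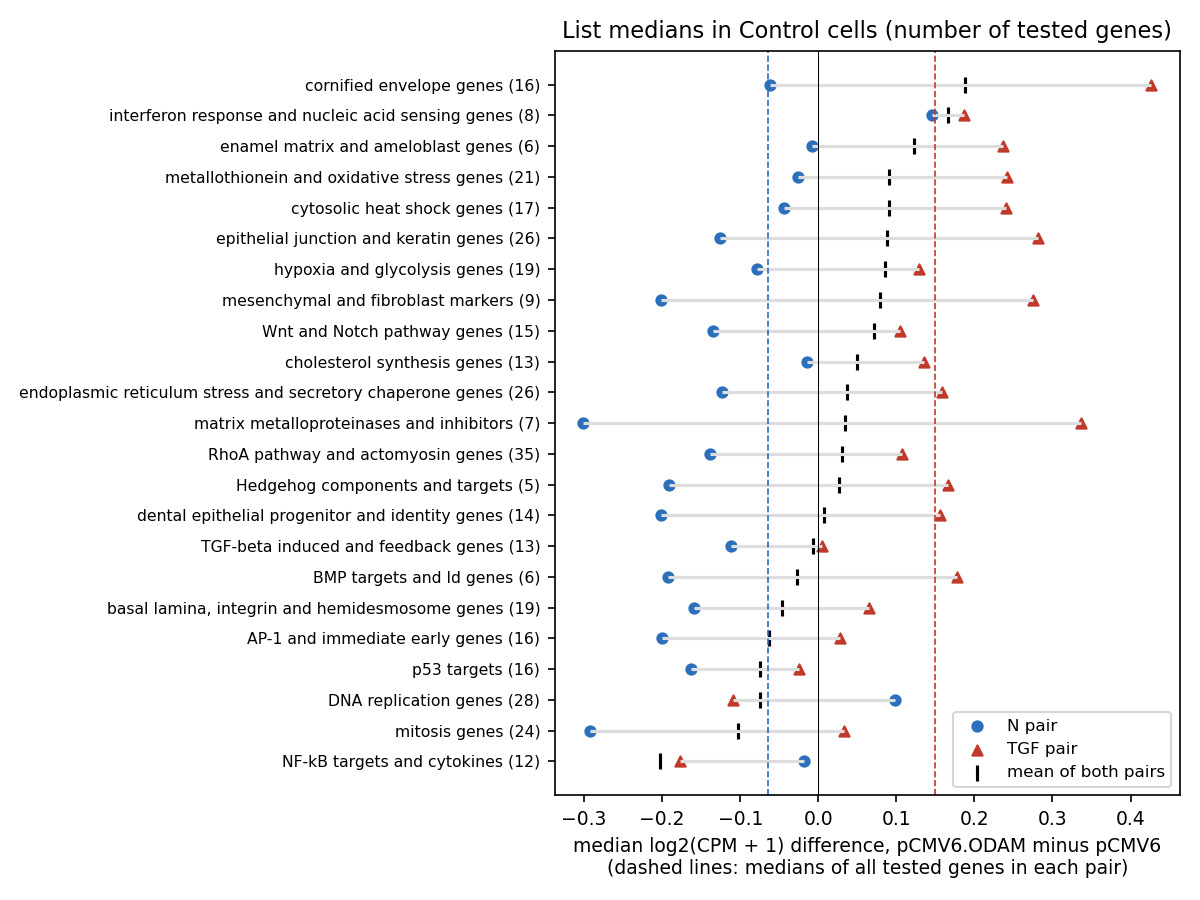
Median plasmid difference in log2(CPM + 1) (horizontal axis) of the lists with more than 1 tested gene, the number tested in brackets: blue circles N pair, red triangles TGF pair, black bars the mean of both, dashed lines the medians of all tested genes in each pair. Most lists lie near the dashed lines, and DNA replication and NF-kB genes have their triangle left of the circle.

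The plasmid effect in Control cells was then set against that in AmeloD cells, which share no library with them. The effects had a Pearson's r of 0.10 (Spearman's rho 0.09) across the 2670 genes that reached 5 CPM in 2 or more Control libraries, a description across genes. In AmeloD cells limma called 3 of 6878 genes (0.0436%). Psmc4, a subunit of the proteasome cap, had an effect of 1.22 ± 0.18 there (limma adjusted p = 0.0161) and 0.11 ± 0.18 in Control, and LOC100359583 had -0.98 ± 0.16 (limma adjusted p = 0.0261) and 0.02 ± 0.16. The difference between the genotypes passed the limma test for 0 genes, or 0% (271 unadjusted, 3.94%, smallest adjusted p 0.999), for 0 with DESeq2 and for 1 with edgeR. That gene was Gsta4, a glutathione transferase, at 4.63 and 4.60 CPM in the Control N pair and 2.31 and 4.03 in the TGF pair, against 2.93 and 105.9 in the AmeloD N pair and 1.76 and 2.78 in the AmeloD TGF pair; a single AmeloD library stood apart.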

How the data were processed

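RNA of the SF2 libraries was read with a 3' transcriptome kit and paired ends, aligned to mRatBN7.2 with STAR 2.7.10a and counted with featureCounts 2.0.1, per the labels' protocols and the submitters' processing notes. The authors deposited 1 table of CPM for 30240 genes. Values were whole multiples of 1 read (100% within 0.01 reads), so reads were recovered; 3 reads equal 0.169 to 0.203 CPM. Whether molecular identifiers were used is not stated in the labels, and intervals on reads cover counting error only.

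log2(CPM + 1) was fitted with limma 3.58.1 (R 4.3.3) to genes that reached 1 CPM in 2 or more Control libraries. All 8 libraries entered, with terms for genotype and, within each genotype, N or TGF and plasmid, which left 2 residual degrees of freedom and spread from the plasmid by TGF differences. edgeR 4.0.16 and DESeq2 1.42.0 were run on recovered reads. The limma and edgeR fits, but not DESeq2, were also run on simulated reads, with no values given here. Named genes had at least 5 CPM on average, the same direction in both pairs and the smallest p, 12 each way, with the 2 highest tested members of each list; further list members and pair extremes were picked after their values were seen. Members and lists were chosen with earlier results of these data known. One gene called in AmeloD cells is not reported here.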

Additional observations from a re-analysis of the deposited data

How the results depend on the processing

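limma called 0 genes for the plasmid effect under TMM scaling, equal medians, pseudocounts of 0.5 and 2, no filter, a 5 CPM filter, 1 TGF term for both genotypes and no trend, as did edgeR and DESeq2. With the 4 Control libraries alone it called 3 genes (Cxcl3 and Cxcl6 lower, Spink5 higher), and edgeR on these alone, added after seeing the data, called 6, 3 each way, with Slu7 and Usp46 among the higher and Cxcl6 among the lower. Leaving out 1 library gave 0 to 3 genes, 3 when any AmeloD library was out. Both limma fits leave 1 residual degree of freedom with a prior spread of infinite weight, so a gene's own disagreement between pairs had no weight. For the difference between genotypes edgeR called 1 gene, and leaving out 1 library gave 0 to 10. The count of genes with the same direction in both pairs was 1191 with the 5 CPM filter and 1286 with it and centring (added after seeing the data), since 2670 genes enter. Without a Control library the effect of a named gene is the other pair's difference, so its sign is set by the choice of genes, while its size moved: Cxcl6 was -0.02 without a TGF library and -3.01 without an N library, Gnl3 -0.99 and -0.08, and Srsf2 -1.26 and -0.05. Libraries were paired by their N or TGF label in the fit, and no pairing by replicate was possible because the labels give no replicate numbers. With 1 library a combination, depth limits Odam and other genes under about 1 CPM to counting error of a few reads.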
